A study of Mus musculus with 4 samples.

Results

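The genes described are 10 of the 55401 genes in the deposited expression table, a set of FoxO-dependent and glucocorticoid-responsive genes known from fasting and muscle wasting. They were chosen by symbol, and each symbol matched 1 row. They comprise the transcription factors *Foxo1* and *Foxo3*, the ubiquitin ligases *Fbxo32* and *Trim63*, the autophagy genes *Gabarapl1* and *Bnip3*, the signalling and metabolic brakes *Txnip* and *Pik3ip1*, and the glucocorticoid-responsive regulators *Klf15* and *Tsc22d3*. Heart tissue of mice aged 8 weeks was profiled by RNA-seq of polyA RNA, with 2 wild-type and 2 *Ctcf* heterozygous libraries, called hearts 1 and 2 of their genotype after the replicate numbers. In heterozygous mice one *Ctcf* allele encodes CTCF-R567W, an amino acid substitution in this chromatin-organising factor, in every cell. The line was made by CRISPR/Cas9 editing on a C57BL/6N background, and all mice had free access to food and water. The sources used here name no fasting or hormone treatment, and do not give the time of day at which the hearts were taken. Values below are given in the order wild-type heart 1, wild-type heart 2, heterozygous heart 1 and heterozygous heart 2.

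FoxO proteins are transcription factors that insulin and growth factors hold out of the nucleus through AKT. When insulin falls, they enter the nucleus and switch on genes for protein breakdown, autophagy and the use of fat. Glucocorticoids act through the glucocorticoid receptor, NR3C1, on some of the same genes, and in muscle both routes meet at the ubiquitin ligases *Fbxo32* (atrogin-1) and *Trim63* (MuRF1). In the heart these genes are known from fasting, from unloading and from the shedding of muscle mass.

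The values were TPM, a share of all transcripts in a library scaled to a total of 1000000, and genes of the mitochondrial chromosome took 61.1% to 68.6% of them. Nuclear gene models that copy mitochondrial sequence, 10 of them with a mean TPM of at least 1, took a further part. With them the share was 76.0% to 78.8% in wild-type and 82.4% to 85.8% in heterozygous hearts. Less of each heterozygous total was thus left for other genes. For this reason all values were brought to a common scale with median-of-ratios factors (1.09, 1.26, 0.818 and 0.903), and levels are called scaled TPM below. The number of reads behind a value is unknown, because TPM do not keep it. The hearts carried high levels of the cardiomyocyte genes, for which 6 markers summed to 20920 to 22310 scaled TPM in wild-type and 18450 to 21850 in heterozygous hearts. *Ctcf* itself had 6.12, 6.03, 7.51 and 5.76 scaled TPM, ranges that overlapped, with a log2 fold change of 0.10 (adjusted p = 0.814) that turned to -0.29 in TPM as deposited. Its total level does not check the genotype, since the substitution does not remove the transcript. Fewer cells of a type and less RNA per cell cannot be told apart in tissue RNA.

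The promoters of *Txnip*, *Trim63*, *Gabarapl1* and *Klf15* are shown because they hold searched letters. These are letters by which sites of FoxO factors, the glucocorticoid receptor or the E-box factors of the clock are commonly searched for. Each window runs from 250 bases before to 50 bases after the transcription start given by RefSeq (GRCm38.p6), on the plus strand, and capitals mark the matches. The windows lie at chr3:96557707-96558006 for *Txnip*, chr4:134314870-134315169 for *Trim63*, chr6:129532942-129533241 for *Gabarapl1* and chr6:90462326-90462625 for *Klf15*.
Txnip: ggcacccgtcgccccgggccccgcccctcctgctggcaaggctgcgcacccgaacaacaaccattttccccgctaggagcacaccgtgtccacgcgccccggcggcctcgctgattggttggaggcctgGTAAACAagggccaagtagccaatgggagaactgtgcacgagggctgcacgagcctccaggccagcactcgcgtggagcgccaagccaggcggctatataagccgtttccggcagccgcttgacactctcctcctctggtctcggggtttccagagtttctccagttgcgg
Trim63: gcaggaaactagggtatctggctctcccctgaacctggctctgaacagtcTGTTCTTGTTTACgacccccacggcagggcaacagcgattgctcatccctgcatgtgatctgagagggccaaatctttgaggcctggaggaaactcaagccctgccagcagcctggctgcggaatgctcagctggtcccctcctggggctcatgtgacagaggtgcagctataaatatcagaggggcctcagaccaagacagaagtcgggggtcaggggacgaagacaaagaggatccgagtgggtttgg
Gabarapl1: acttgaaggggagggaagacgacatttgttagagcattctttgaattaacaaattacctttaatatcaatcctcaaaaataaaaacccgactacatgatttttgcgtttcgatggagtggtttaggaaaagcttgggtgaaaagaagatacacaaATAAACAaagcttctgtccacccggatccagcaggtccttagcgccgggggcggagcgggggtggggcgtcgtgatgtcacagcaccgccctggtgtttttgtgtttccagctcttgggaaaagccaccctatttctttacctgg
Klf15: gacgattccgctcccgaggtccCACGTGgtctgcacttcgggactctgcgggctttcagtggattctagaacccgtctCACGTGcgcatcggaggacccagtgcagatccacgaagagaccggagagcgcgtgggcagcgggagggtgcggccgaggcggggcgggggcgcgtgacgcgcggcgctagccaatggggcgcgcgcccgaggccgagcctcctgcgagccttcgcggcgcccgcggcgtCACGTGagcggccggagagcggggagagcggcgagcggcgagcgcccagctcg

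The FoxO letters GTAAACA, or TGTTTAC on the other strand, stood 121 bases before the start of *Txnip* and 194 bases before that of *Trim63*. In *Trim63* they directly followed TGTTCT, 200 bases before the start, which is the other strand of AGAACA, a core element bound by the glucocorticoid receptor. The variant ATAAACA, or TGTTTAT, stood 95 bases before the start of *Gabarapl1*. The E-box CACGTG, which reads alike on both strands, was present in *Klf15* 228, 172 and 3 bases before the start. In windows not shown, CACGTG lay 108 bases before the start of *Bnip3*, and TGTTCT 185 bases before a start of *Tsc22d3*. RefSeq windows were matched for 9 of the 10 genes, 11 windows in all, and not for *Fbxo32*. Among 32851 promoter windows of the same length GTAAACA was found in 3.65%, ATAAACA in 4.60%, AGAACA in 19.0% and CACGTG in 7.15%, either strand counted. Only these exact letters were searched for, so imperfect E-boxes are not marked. These matches describe the letters only.

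TPM take account of transcript length, so levels can be set side by side between genes. Levels of the 10 genes in wild-type hearts spanned from *Txnip*, at a mean of 77.2 scaled TPM, to *Foxo1*, at 0.608. *Trim63*, *Bnip3*, *Gabarapl1*, *Pik3ip1*, *Tsc22d3*, *Klf15*, *Fbxo32* and *Foxo3* followed *Txnip* in that order. Of neighbours in this order, the wild-type ranges overlapped only for *Gabarapl1* and *Pik3ip1*. In heterozygous hearts *Klf15* moved from rank 7 to rank 4, above *Gabarapl1*, *Pik3ip1* and *Tsc22d3*, and the means of the other genes kept their order. The heterozygous ranges of *Gabarapl1* and *Pik3ip1*, of *Pik3ip1* and *Tsc22d3* and of *Foxo3* and *Foxo1* overlapped, so these neighbours did not differ beyond their spread.

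**Figure D1:**
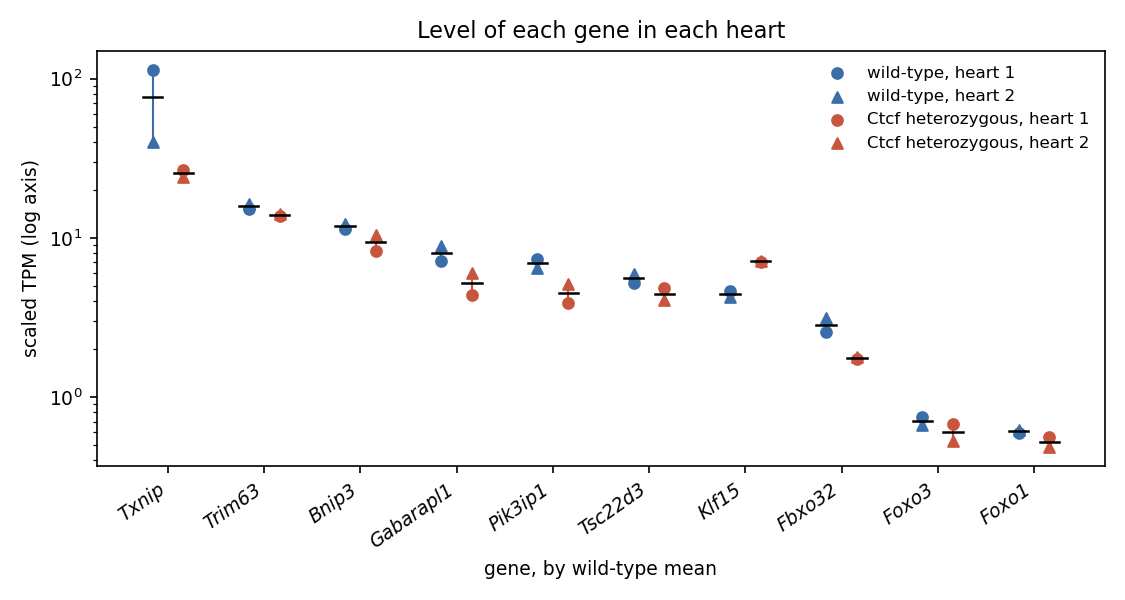
Level of each of the 10 genes in each heart, as scaled TPM on a log axis, with genes ordered by their wild-type mean. Blue points are wild-type and red points heterozygous hearts (circle, heart 1; triangle, heart 2), coloured lines join the 2 hearts of a genotype and black bars are means; *Txnip* differs 2.83-fold between the wild-type hearts, and *Klf15* is the one gene with both red points above both blue points.

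*Foxo1* and *Foxo3*, the upstream transcription factors, were low in all hearts, and both stayed under the mean TPM of 1 required for the test. *Foxo1* (chr3:52268336-52353221, plus strand) had 0.598, 0.619, 0.563 and 0.487 scaled TPM. The genotypes did not overlap, with a wild-type mean of 0.608 ± 0.015 and a heterozygous mean of 0.525 ± 0.053 (SD, n = 2 each). *Foxo3* (chr10:42181841-42276755, minus strand) had 0.745, 0.667, 0.673 and 0.531 scaled TPM, and here heterozygous heart 1 lay within the wild-type range. In a fit with no filter on low values the log2 fold change, heterozygous over wild-type on the log2(scaled TPM + 1) scale used throughout, was -0.08 ± 0.09 (SE) for *Foxo1* and -0.09 ± 0.11 for *Foxo3*, both with an adjusted p of 0.791. The ratio of *Foxo1* to *Foxo3* within a library was 0.803, 0.929, 0.836 and 0.917, and the genotypes overlapped. *Gm20402*, a gene model antisense to *Foxo1*, matched it at 100% identity over 590 of its 687 bases and was at 0 TPM in all hearts. *Foxo4*, the most highly expressed FoxO gene of the hearts, had 2.42, 2.99, 2.03 and 2.30 scaled TPM (log2 fold change -0.22, adjusted p = 0.540), and the fold change was -0.11 without wild-type heart 2. *Foxo6*, a further family member, was higher in both heterozygous hearts but low, at 0.211, 0.389, 0.648 and 0.675 scaled TPM, and was not tested.

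*Fbxo32*, the F-box protein atrogin-1 that selects proteins for breakdown, was lower in heterozygous hearts. Its levels were 2.57, 3.14, 1.73 and 1.77 scaled TPM, so that the heterozygous hearts were close together and below the wild-type range (chr15:58175879-58214932, minus strand). The means were 2.85 ± 0.40 and 1.75 ± 0.03 (SD, n = 2 each), a ratio of 1.63 of wild-type over heterozygous. The log2 fold change was -0.48 ± 0.14 (SE; 95% interval -0.82 to -0.14), with an adjusted p of 0.341 in limma after Benjamini-Hochberg adjustment over 10036 genes.

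*Trim63*, the RING-finger ligase MuRF1 that acts on sarcomere proteins, had 15.2, 16.3, 13.8 and 14.0 scaled TPM (chr4:134315120-134329629, plus strand). Both heterozygous hearts were again under both wild-type hearts, but the gap was small, with a log2 fold change of -0.17 ± 0.15 (95% interval -0.52 to 0.19) and an adjusted p of 0.655. The ratio of *Fbxo32* to *Trim63* within a library, which no scaling of the library changes, was 0.168, 0.193, 0.125 and 0.126, lower in both heterozygous hearts. *Trim55* (MuRF2), the relative of *Trim63*, had 3.35, 3.70, 2.08 and 2.60 scaled TPM, with a log2 fold change of -0.44 and an adjusted p of 0.354. The ratio of *Trim63* to *Trim55* was accordingly higher in heterozygous hearts, at 4.55, 4.40, 6.64 and 5.40.

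*Gabarapl1*, a ubiquitin-like protein that is coupled to the membrane of the autophagosome, was lower in both heterozygous hearts. Its levels were 7.15, 8.86, 4.39 and 5.98 scaled TPM, and the genotypes did not overlap (chr6:129533160-129542346, plus strand). The means of 8.01 ± 1.21 and 5.19 ± 1.12 (SD, n = 2 each) differed by 1.54-fold. The log2 fold change was -0.55 ± 0.19 (95% interval -0.99 to -0.10), with an adjusted p of 0.360. Without heterozygous heart 1, which had the lowest level, it was -0.36.

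The relatives of *Gabarapl1* differed in their values. *Gabarapl2* had 13.3, 13.9, 7.94 and 9.14 scaled TPM (log2 fold change -0.61, adjusted p = 0.321). *Gabarap* had 33.1, 34.2, 26.6 and 38.1 scaled TPM, with overlapping genotypes and a log2 fold change of -0.08 (adjusted p = 0.897) that turned to 0.09 when libraries were scaled to cardiomyocyte genes. Within a library, *Gabarapl1* over *Gabarap* was 0.216, 0.259, 0.165 and 0.157, lower in both heterozygous hearts. *Gabarapl1* over *Gabarapl2* was 0.540, 0.638, 0.553 and 0.654, with overlap.

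*Bnip3*, a receptor on mitochondria that delivers them to autophagy, had 11.3, 12.3, 8.32 and 10.4 scaled TPM (chr7:138890836-138909519, minus strand). The heterozygous hearts differed more from each other than the wild-type hearts did, and both lay under the wild-type range. The log2 fold change was -0.31 ± 0.17 (95% interval -0.71 to 0.09), with an adjusted p of 0.471, and it was -0.16 without heterozygous heart 1. *Bnip3l* (NIX), its close relative, had 5.01, 5.83, 3.02 and 5.15 scaled TPM, with overlapping genotypes, a log2 fold change of -0.37 and an adjusted p of 0.509, and it was -0.060 without heterozygous heart 1 and -0.67 without heterozygous heart 2. *Bnip3* is also a target of the hypoxia factor HIF1A. Of 20 hypoxia genes listed as a check, 15 were tested, with a median log2 fold change of -0.14 and summed levels of 481 to 532 scaled TPM in wild-type and 436 to 512 in heterozygous hearts. The gene models *Gm16439*, *Gm6532* and *Gm9419* share at least 95% of their sequence with *Bnip3*, and each was at or below 0.21 TPM in all hearts.

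*Txnip*, which binds thioredoxin and slows the uptake of glucose, had the lowest log2 fold change and the widest spread of the 8 genes tested. Its levels were 114, 40.3, 26.7 and 24.3 scaled TPM (chr3:96557957-96561883, plus strand). The wild-type hearts differed 2.83-fold from each other, while the heterozygous hearts were alike and below either. The means were 77.2 ± 52.2 and 25.5 ± 1.72 (SD, n = 2 each), 3.03-fold apart. The fitted log2 difference was -1.38 ± 0.44 (95% interval -2.43 to -0.33), with an adjusted p of 0.346. In the fit with no filter on low values the 95% interval was -2.79 to 0.02, which crosses 0. The difference was -0.64 without wild-type heart 1 and -2.12 without wild-type heart 2, so its size rested on which wild-type heart was used. Wild-type heart 1 also stood apart in 4 atrial markers, which summed to 806, 2354, 1918 and 3281 scaled TPM, and their part in the level of *Txnip* was not tested.

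The relatives of *Txnip* in the arrestin-domain family were mixed. *Arrdc4*, also an inhibitor of glucose uptake, had 2.91, 2.89, 4.55 and 3.93 scaled TPM (log2 fold change 0.42, adjusted p = 0.346). *Arrdc2* had 5.88, 6.04, 8.31 and 8.64 scaled TPM (log2 fold change 0.44, adjusted p = 0.343). Neither passed the test, and in both the heterozygous hearts lay above the wild-type hearts after scaling. In TPM as deposited the genotypes overlapped in both. *Arrdc3*, by contrast, had 2.89, 3.53, 2.67 and 2.42 scaled TPM, lower in both heterozygous hearts (log2 fold change -0.24, adjusted p = 0.507). *Arrdc1* had 6.27, 4.83, 4.78 and 6.78, with overlap (log2 fold change 0.04, adjusted p = 0.941), and both of these were named after their values were seen. The ratio of *Txnip* to *Arrdc4* within a library was 39.2, 13.9, 5.87 and 6.17. That of *Txnip* to *Txn1* (thioredoxin) was 8.76, 2.74, 3.37 and 1.98, with overlap. *Mlxipl* (ChREBP), a glucose-sensing factor that drives *Txnip*, had 18.6, 15.0, 17.8 and 14.1 scaled TPM, with overlapping genotypes and a log2 fold change of -0.07 (adjusted p = 0.889), a sign that turned to 0.09 with scaling to cardiomyocyte genes. A gene antisense to *Txnip*, *Gm15441*, had 0.83, 0.35, 0.03 and 0.48 TPM, and as no source used here says whether counting used the strand, reads of the overlapping pair cannot be told apart.

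*Pik3ip1*, a membrane protein that restrains PI3 kinase, the enzyme upstream of AKT, had 7.38, 6.45, 3.91 and 5.14 scaled TPM (chr11:3330401-3342971, plus strand). Both heterozygous hearts were under both wild-type hearts, with means of 6.91 ± 0.66 and 4.53 ± 0.86 (SD, n = 2 each) that were 1.53-fold apart. On the log2 scale the difference was -0.52 ± 0.17 (95% interval -0.92 to -0.13), with an adjusted p of 0.346.

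*Klf15*, a zinc-finger factor induced by glucocorticoids that directs amino acid and fat metabolism in muscle, was the one gene of the 10 that was higher in heterozygous hearts. Its levels were 4.63, 4.22, 7.07 and 7.16 scaled TPM, with little spread within either genotype (chr6:90462576-90475238, plus strand). The means were 4.43 ± 0.29 and 7.12 ± 0.07 (SD, n = 2 each), a ratio of 1.61 of heterozygous over wild-type. The fitted log2 fold change was 0.58 ± 0.14 (95% interval 0.25 to 0.91), with an adjusted p of 0.308. The deposited TPM, before any scaling, were 5.04, 5.32, 5.78 and 6.47, so the order held there too, whereas just 2.32% of all tested genes had both heterozygous hearts above both wild-type hearts in deposited TPM.

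*Klf9*, another glucocorticoid-induced member of the family, had 3.32, 3.20, 2.30 and 1.95 scaled TPM (log2 fold change -0.45, adjusted p = 0.341). *Klf15* over *Klf9* within a library was 1.40, 1.32, 3.07 and 3.68. *Per1*, a clock gene that glucocorticoids induce, had 1.68, 1.61, 2.52 and 2.48 scaled TPM, with a log2 fold change of 0.40 and an adjusted p of 0.346. Of 18 core clock genes, 15 were tested and had a median log2 fold change of 0.05. Among these 15, 4 were lower and 4 higher in heterozygous hearts without overlap, against 23.3% and 23.7% of all tested genes. Clock genes peak at different times of day, so the median of the list cannot tell their phase. *Dbp*, 1 of them, varied widely within each genotype, at 94.9, 52.7, 43.0 and 125 scaled TPM. The part of the clock genes in the level of *Klf15* was not tested.

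*Tsc22d3* (GILZ), a leucine-zipper protein that is a classical target of the glucocorticoid receptor, had 5.22, 5.94, 4.87 and 4.05 scaled TPM (chrX:140539528-140600659, minus strand). The heterozygous hearts lay under the wild-type hearts by a small margin. The log2 fold change was -0.27 ± 0.15 (95% interval -0.63 to 0.09), with an adjusted p of 0.485, and it was -0.16 without heterozygous heart 2. *Klf15* over *Tsc22d3* within a library was 0.887, 0.711, 1.45 and 1.77, higher in both heterozygous hearts. Of its relatives, *Tsc22d3* over *Tsc22d4* was 0.155, 0.168, 0.148 and 0.099, lower in both heterozygous hearts. *Tsc22d3* over *Tsc22d1* was 0.191, 0.209, 0.218 and 0.160, with overlap. The receptor gene *Nr3c1* had 2.74, 2.75, 2.99 and 2.20 scaled TPM, with overlapping genotypes and a log2 fold change of -0.07 (adjusted p = 0.871), which turned to 0.06 with scaling to cardiomyocyte genes. *Fkbp5*, a chaperone that glucocorticoids induce, had 0.883, 0.667, 1.08 and 1.18 scaled TPM and was too low to test, while *Ddit4*, a stress-induced inhibitor of mTOR, had 1.09, 1.07, 0.905 and 0.764 and was likewise not tested. *Sgk1*, a kinase induced by glucocorticoids, had 8.10, 8.76, 10.9 and 8.50 scaled TPM with overlap, a log2 fold change of 0.18 and an adjusted p of 0.672; its sign reversed in TPM as deposited, and it was 0.012 without heterozygous heart 1.

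**Figure D2:**
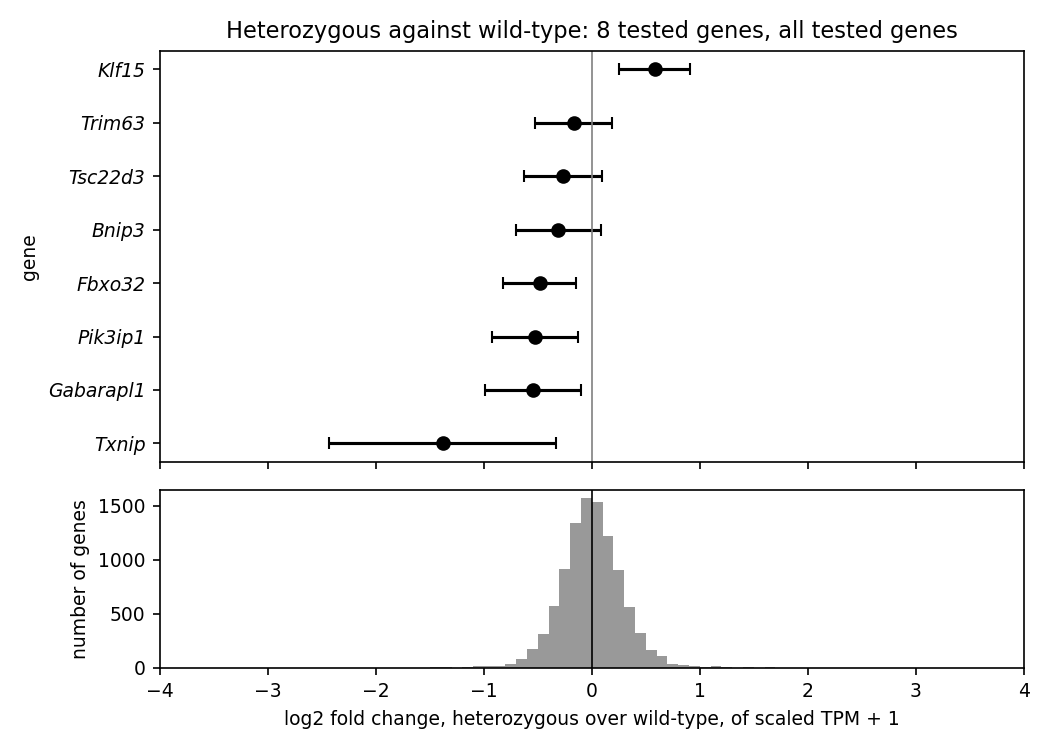
Log2 fold change, heterozygous over wild-type on the log2(scaled TPM + 1) scale, for the 8 genes tested (points, with 95% intervals from limma) above a histogram of all 10036 tested genes. The intervals of *Klf15*, *Fbxo32*, *Pik3ip1*, *Gabarapl1* and *Txnip* do not cross 0, and those of *Trim63*, *Tsc22d3* and *Bnip3* do. In the fit with no filter on low values, which is not drawn, that of *Txnip* crosses 0 as well.

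No gene of the 10 was called, a call being an adjusted p under 0.05 with a fold change over 1.5. Across the genome 0.0199% of tested genes were called lower and 0% higher, so calls were rare in this fit of scaled TPM without read counts. At an unadjusted p under 0.05, *Fbxo32*, *Txnip*, *Pik3ip1* and *Gabarapl1* were lower and *Klf15* was higher, 4 and 1 of 8 tested genes, against 5.71% and 6.49% of all tested genes. Of the 8, 7 had both heterozygous hearts under both wild-type hearts and 1 had them above, against 23.3% and 23.7% of all tested genes. With *Foxo1* and *Foxo3*, which were below the filter, 8 of the 10 lay lower, 1 higher and 1 overlapped. As deposited, 7 of the 8 tested genes lay lower, against 67.8% of all tested genes. The median log2 fold change of the 8 was -0.40, and that of all tested genes was close to 0, at -0.005. With 2 hearts per genotype an exact permutation test, two-sided, cannot give a p below 0.333 for a gene. The p-values rest only on the spread between these samples, which limma moderates with that of all tested genes. This spread may in part be technical. The 10 genes were chosen with earlier results of these data known, so their counts are a description only.

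**Figure D3:**
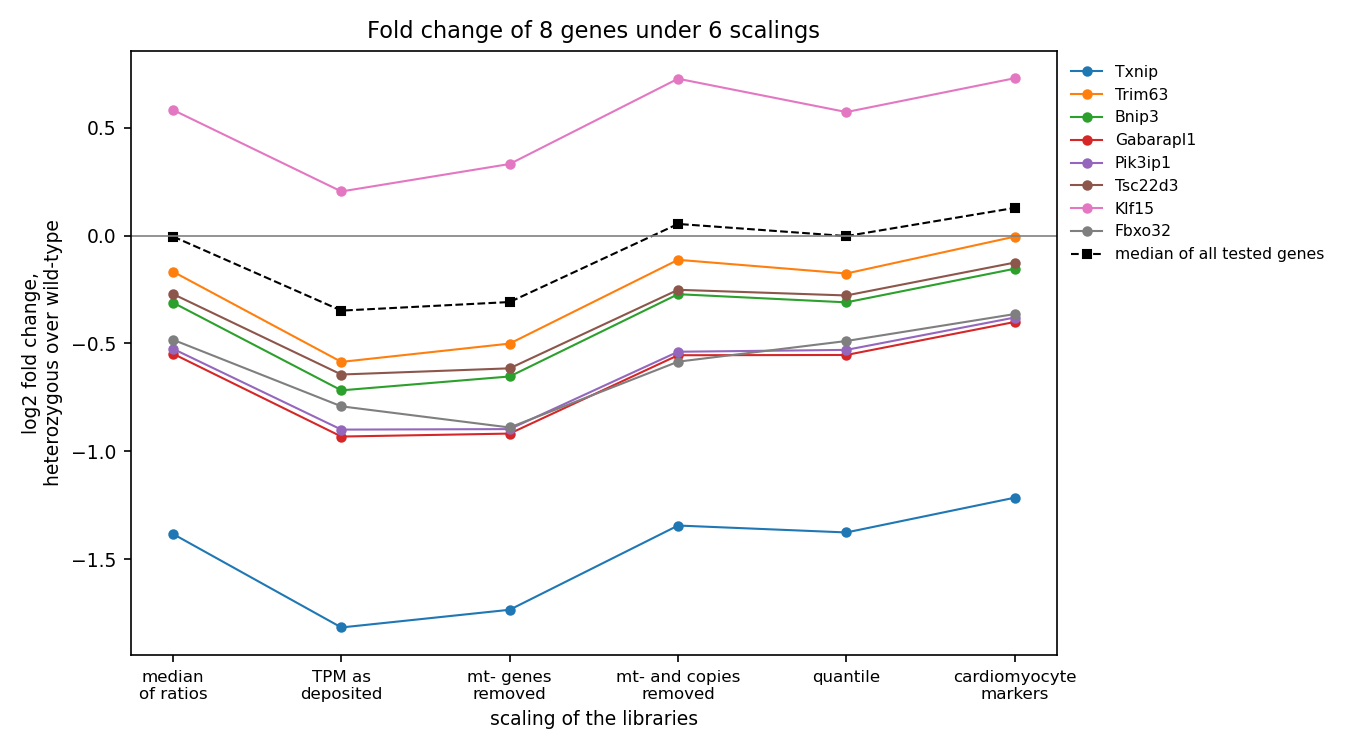
Log2 fold change of the 8 tested genes (coloured lines) and median of all tested genes (black, dashed) under 6 ways of scaling the libraries, each a position on the x axis. All 7 genes under 0 stay under 0, with *Trim63* reaching -0.005 with scaling to cardiomyocyte markers, and *Klf15* stays above 0 in each.

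The size of each difference moved with the scaling, and its sign did not. Across the 6 scalings the log2 fold change ran from -0.89 to -0.36 for *Fbxo32*, from -0.90 to -0.38 for *Pik3ip1* and from -0.93 to -0.40 for *Gabarapl1*. The range was -1.82 to -1.21 for *Txnip* and 0.20 to 0.73 for *Klf15*. The weaker differences, of *Trim63*, *Bnip3* and *Tsc22d3*, reached -0.005, -0.15 and -0.13 with scaling to cardiomyocyte markers. The median of all tested genes itself shifted by -0.35 in TPM as deposited and -0.31 with mitochondrial genes removed, and by 0.13 with scaling to cardiomyocyte markers. Relative to that median, the members' median was -0.41, -0.46 and -0.39 under these scalings and -0.39 in the main one.

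**Figure D4:**
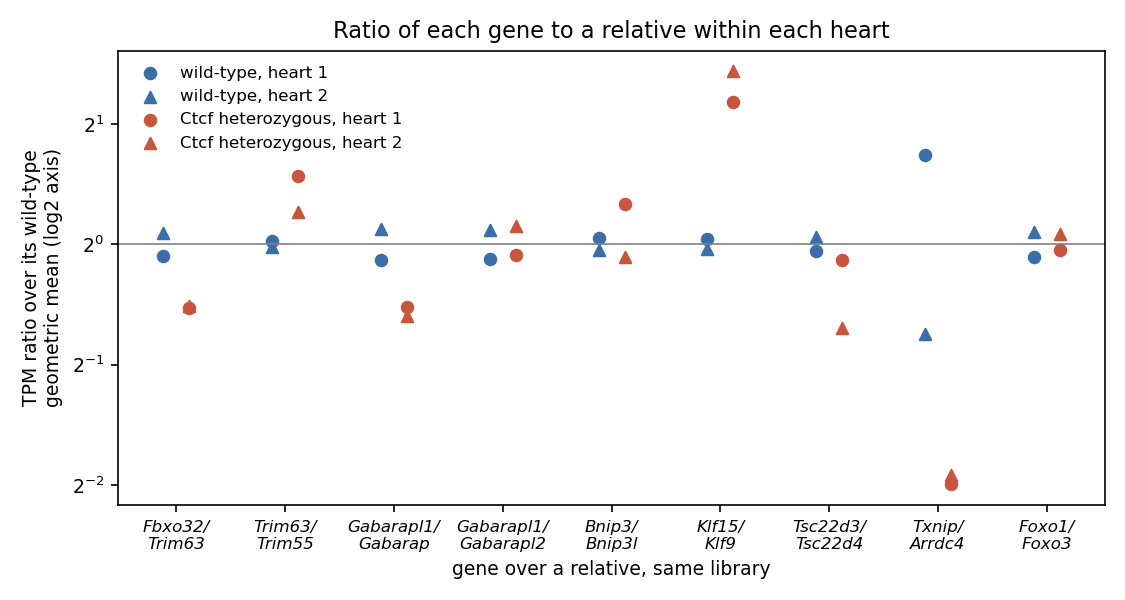
Ratio of the TPM of a gene to that of a relative in the same heart, divided by the geometric mean of the wild-type ratios, on a log2 axis (blue, wild-type; red, heterozygous; circle, heart 1; triangle, heart 2). The red points of *Klf15* over *Klf9* and *Trim63* over *Trim55* lie above the blue points, those of *Fbxo32* over *Trim63*, *Gabarapl1* over *Gabarap*, *Tsc22d3* over *Tsc22d4* and *Txnip* over *Arrdc4* lie below them, and the others overlap.

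The wider pathways were described from lists that leave out the 10 genes. These lists were chosen with earlier results of these data known, so their counts are a description only. Their counts stand beside a background over all tested genes of 5.71% lower and 6.49% higher at an unadjusted p under 0.05, and of 23.3% lower and 23.7% higher with no overlap between genotypes. Of 35 FoxO target genes, 26 were tested, 22 with a log2 fold change below 0 and 4 above, with a median of -0.25. None was called in limma, and at an unadjusted p under 0.05 there were 10 lower and 0 higher. *Pdk4*, the kinase that turns off glucose oxidation in fasting, had 13.9, 7.78, 2.37 and 1.34 scaled TPM and a fitted log2 fold change of -2.02 ± 0.29 and an adjusted p of 0.174. It passed the adjusted threshold in TPM as deposited (adjusted p = 0.0088) and with mitochondrial genes removed (adjusted p = 0.034). *Gadd45a*, a growth-arrest gene that FoxO factors induce, had 3.03, 2.54, 1.48 and 1.48 scaled TPM, with a log2 fold change of -0.61 and an adjusted p of 0.300. *Pnpla2*, the lipase that starts the breakdown of stored fat, had 20.0, 24.4, 11.6 and 13.2, with -0.78 and an adjusted p of 0.290.

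Of 28 genes for the use of fuel in the fasted heart, 23 were tested, with a median log2 fold change of -0.57. All 23 were below 0 with no overlap between genotypes, against 23.3% of all tested genes. At an unadjusted p under 0.05 in limma there were 15 of them, against 5.71%. The list was chosen with earlier results of these data known, so these counts describe its genes and do not test them. *Ucp3*, a mitochondrial carrier induced by fatty acids, had 37.9, 25.9, 12.0 and 9.82 scaled TPM (log2 fold change -1.45, adjusted p = 0.199). *Angptl4*, a secreted inhibitor of lipoprotein lipase, had 3.18, 1.75, 0.465 and 0.255 (log2 fold change -1.32, adjusted p = 0.208). In TPM as deposited the adjusted p was 0.022 for *Ucp3* and 0.034 for *Angptl4*. *Slc25a20*, the carnitine carrier of mitochondria, had 12.6, 14.0, 7.34 and 9.24 (log2 fold change -0.63, adjusted p = 0.335). *Txnip* over *Pdk4* within a library was 8.23, 5.18, 11.3 and 18.1, so that *Pdk4* stood further below wild-type than *Txnip* did.

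The glucocorticoid list was more evenly divided. Of 36 genes, 27 were tested, 17 below 0 and 10 above, with a median of -0.06, and 4 lower and 2 higher at an unadjusted p under 0.05. Its lower members included *Angptl4* and *Glul*, glutamine synthetase, which had 13.6, 15.4, 9.68 and 8.37 scaled TPM (log2 fold change -0.63, adjusted p = 0.329). The ubiquitin ligase and atrophy list had 34 tested of 36 genes, 20 below and 14 above 0, with a median of -0.11, and 3 lower and 4 higher at that p. There *Nedd4l*, a ligase that acts on membrane channels, was the highest, at 6.92, 9.59, 17.9 and 16.4 scaled TPM (log2 fold change 0.98, adjusted p = 0.271), and *Cul3*, a cullin scaffold, the lowest, at 7.98, 8.38, 4.82 and 5.14 (log2 fold change -0.62, adjusted p = 0.291).

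Of 45 autophagy and mitophagy genes, 43 were tested, 32 below 0 and 11 above, with a median of -0.11, and 6 lower and 1 higher at an unadjusted p under 0.05. *Atg4b*, the protease that trims *Gabarapl1* and its relatives, had 5.76, 3.48, 2.57 and 2.17 scaled TPM (log2 fold change -0.71, adjusted p = 0.341), and the fold change was -0.41 without wild-type heart 1. *Ctsd*, the lysosomal protease cathepsin D, had 78.9, 94.5, 48.9 and 62.0 (log2 fold change -0.64, adjusted p = 0.346). Of 25 FoxO factors and regulators, 17 were tested, 13 below and 4 above 0, with a median of -0.06 and none at an unadjusted p under 0.05. The *Txnip* family and thioredoxin list held 16 tested of 19 genes, 9 below and 7 above 0, with a median of -0.02, and 0 lower and 2 higher at that p. The Krüppel-like factors and genes linked to *Klf15* held 23 tested of 28 genes, 19 below and 4 above 0, with a median of -0.17, and 5 lower and 1 higher at that p. In it *Klf2*, a flow-responsive factor of endothelium, had 4.18, 4.94, 9.24 and 7.15 scaled TPM (log2 fold change 0.72, adjusted p = 0.308). The list of TSC22 genes and PI3 kinase brakes, in which *Klf2* also stands, held 16 tested of 20 genes, 5 below and 11 above 0, with a median of 0.07, and 0 lower and 1 higher at that p. No gene of these lists was called.

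**Figure D5:**
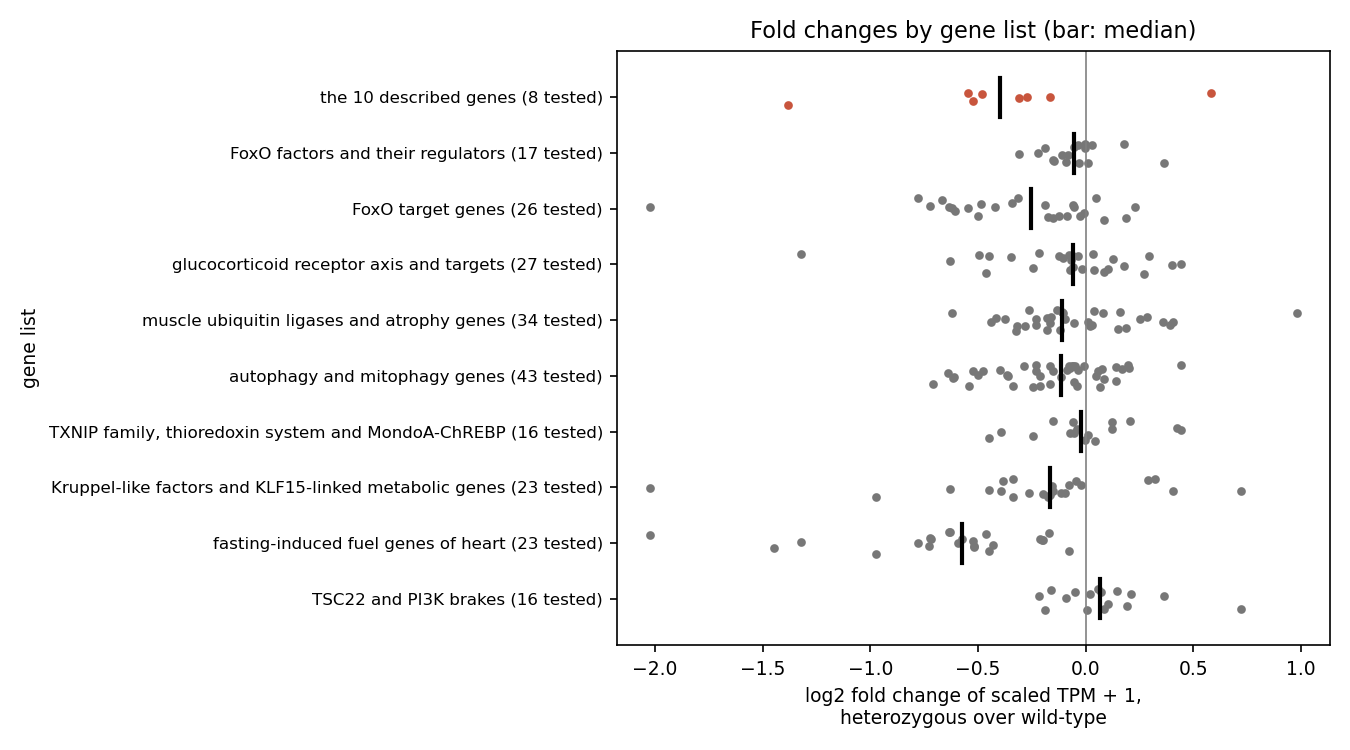
Log2 fold change of each tested gene (points) of the 10 described genes (red) and of 9 pathway lists without them (grey), with black bars at the median; a gene can stand in several lists, and the vertical spread of points has no meaning. The medians run from -0.57 for the fuel genes of the fasted heart to 0.07 for the TSC22 and PI3 kinase list, against -0.005 for all tested genes. The genes and lists were chosen with earlier results of these data known.

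Over all 9 lists, with each gene counted once, 198 of 243 genes were tested, 140 below 0 and 58 above, at a median of -0.11. Of these 86 were lower and 27 higher without overlap, against 23.3% and 23.7% of all tested genes, and 34 were lower and 9 higher at an unadjusted p under 0.05, against 5.71% and 6.49%. The lists share genes, so their counts are not independent. With scaling to cardiomyocyte markers, where the median of all tested genes was 0.13, the medians of 5 lists turned positive, those of the FoxO factors, the glucocorticoid genes, the ubiquitin ligases, the autophagy genes and the *Txnip* family.

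Genes with a profile most like the mean of the 8 tested members across the 4 hearts were found by the mean absolute difference of centred log2 values. The nearest were *6820431F20Rik* (0.0099), *Ednra* (0.014), *Setd1a* (0.018), *Arl14ep* (0.020) and *2310040G24Rik* (0.021). *Ednra* encodes an endothelin receptor and *Setd1a* a histone methyltransferase. With 4 hearts, closeness of this kind describes the values only.

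Summed levels of endothelial, fibroblast and mural markers were lower in both heterozygous hearts, without overlap but narrowly so for fibroblast and mural markers. Counts of single markers without overlap stand beside 23.3% lower and 23.7% higher among all tested genes. The 6 endothelial markers summed to 437 to 477 scaled TPM in wild-type and 346 to 385 in heterozygous hearts. Of the 6, 4 were lower and 1 higher without overlap. Most of the sum was *Fabp4*, at 377, 412, 289 and 328, while *Cdh5* overlapped. *Tie1* was higher, at 16.6, 15.9, 18.2 and 17.9. The 6 fibroblast markers summed to 63.8 to 84.8 and 58.4 to 63.1, with 2 lower. The 5 mural markers summed to 63.2 to 70.7 and 49.0 to 62.7, with 2 lower. The fibroblast gap rested on *Dcn*, at 29.7, 45.1, 20.7 and 29.0 scaled TPM, and the sums overlapped without it. The mural gap likewise rested on *Acta2*, at 24.1, 17.0, 11.3 and 16.5. Of the fibroblast markers, 4 had a log2 fold change below 0 and 2 above. The 6 cardiomyocyte markers, with 2 lower, and the 6 macrophage markers, with 1 lower, overlapped in their sums. The 4 adipocyte markers summed to 2.30, 0.881, 0.208 and 0.886 scaled TPM, low in all hearts, with 2 lower and sums that overlapped. The 4 skeletal muscle markers overlapped in their sums, and *Myh1* was listed at 0 in all hearts. The 5 erythroid markers summed to 930 to 987 scaled TPM in wild-type hearts and to 965 and 2120 in the heterozygous hearts. The 4 atrial markers all had a log2 fold change above 0, with a median of 0.83, and the genotypes overlapped in each. The 4 lymphocyte markers summed to at most 2.22 scaled TPM in any heart. The part of atrial, endothelial, fibroblast, mural, fat and red blood cells in the levels of the 10 genes was not tested.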

How the data were processed

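The authors deposited TPM values per gene for 4 mouse heart libraries, rounded to 2 decimals. Per the study's methods, reads were trimmed with Trim Galore, aligned to mm10 with STAR and quantified with RSEM, and DESeq2 was applied to counts, which were not used here. The annotation release is not given in the sources used here. TPM keep no depth, and a change in a few abundant genes shifts all others.

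Scaled values (TPM over a median-of-ratios factor) were used as log2(value + 1). The 10036 genes whose mean TPM reached 1 entered limma (3.58.1; lmFit, eBayes with trend, two-sided) in R (4.3.3), with Benjamini-Hochberg adjustment over all of them and genotype as the one term. All adjusted p values are from this fit unless another setting is named. Coordinates are from GENCODE (mm10, 55141 identifiers matched) and promoters from RefSeq (GRCm38.p6). Near-identical copies were sought with BLAST+ (2.17.0) at 95% identity or more across at least 80% of the other gene's transcript. The fit was tested on simulated data. Python (3.11.15), pandas (2.3.3) and matplotlib (3.10.9) were used for tables and plots.

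The 10 genes and all lists were chosen with earlier results of these data known. Named are all 10, the relatives and regulators fixed by name, up to 3 genes with the smallest unadjusted p under 0.05 of each pathway list, and the 5 genes nearest to the mean profile. Same-numbered hearts come from different mice and were not taken as pairs. Alternatives were pseudocounts of 0.1 and 5, no filter or a minimum mean of 5, the deposited TPM unscaled, mitochondrial genes removed with and without their nuclear copies, quantile normalization, a replicate block, eBayes without trend or robust, stricter thresholds, and each library left out in turn. Scaling to cardiomyocyte markers was added after the values were seen.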

Additional observations from a re-analysis of the deposited data

How the results depend on the processing

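All 8 tested genes kept their sign under every alternative run, and none passed the threshold in any. TPM without read counts leave the depth and the counting error unknown, and 2 hearts per genotype leave a single heart able to move a value. The number of all tested genes called lower, 2 in the main fit, was 4 with a pseudocount of 0.1, 0 with no filter, 11 in TPM as deposited, 12 with mitochondrial genes removed, 4 with their nuclear copies removed as well, 4 with scaling to cardiomyocyte markers, 7 with the replicate block and between 4 and 13 with one library left out. The number called higher, 0 in the main fit, was 2 in TPM as deposited, 2 with mitochondrial genes removed, 2 with the copies removed as well, 4 with scaling to cardiomyocyte markers, 3 with the replicate block, 2 with robust eBayes and between 0 and 13 with one library left out. The median log2 fold change of the 8 genes, -0.40, was -0.22 with a pseudocount of 5, -0.75 in TPM as deposited, -0.77 with mitochondrial genes removed and -0.26 with scaling to cardiomyocyte markers. The cause of these moves was not tested. Across the 10036 tested genes, the deviations of same-numbered hearts from their genotype means had a correlation of 0.101. The replicate block moved the counts of calls as given and the adjusted p of *Pdk4* in limma to 0.0073.

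The genes below, with a sign that reversed, had main-fit log2 fold changes from -0.08 for *Gabarap* to 0.18 for *Sgk1*. *Trim63*, at -0.17, was of a size like that of *Sgk1* and kept its sign. *Ctcf* was -0.29 in TPM as deposited, -0.21 with mitochondrial genes removed and from -0.066 to 0.27 with one library left out, reversed without heterozygous heart 1. *Gabarap* was 0.092 with scaling to cardiomyocyte markers and from -0.33 to 0.18 with one library left out, reversed without heterozygous heart 1. *Mlxipl* was 0.090 with scaling to cardiomyocyte markers and from -0.23 to 0.086 with one library left out, reversed without wild-type heart 1 or heterozygous heart 2. *Nr3c1* was 0.061 with that scaling and from -0.23 to 0.089 with one library left out, reversed without heterozygous heart 2. *Sgk1* was -0.23 in TPM as deposited and -0.13 with mitochondrial genes removed.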
